A study of Mus musculus with 15 samples.

Results

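RNA from melanoma lung metastases was compared between mice fed a diet with no methionine (deficient, 0%, n = 3) and mice fed a methionine-restricted diet (25% of normal, n = 3). Libraries were taken by their diet label, which gave 6 of the 15 libraries of the series, and all genes of the deposited count files were used. Both groups came from male C57BL/6J mice that received 100000 B16-F10.1 cells through the tail vein at 8 weeks of age. They carried the tumours for 21 days before the test diet and ate it for 2 weeks until collection. B16-F10.1 is a pigmented mouse melanoma line that lodges in the lung after such an injection, so every tumour descends from a single line and was taken from lung. The other 9 libraries come from mice on an adequate (n = 3) or a supplemented diet (300%, n = 6, known from its label alone). They shared the estimate of spread and serve below as reference levels. Nothing in the labels ties each library to its own mouse. A p-value here therefore reflects only how far these samples spread, which may be technical.

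Methionine is an essential amino acid. It starts nearly every protein and is the source of S-adenosylmethionine, the donor of methyl groups for DNA, histones, RNA and phospholipids. After the methyl group is given up, the remaining homocysteine is either methylated back to methionine, with a methyl group from folate or betaine, or passed through transsulfuration to cysteine and glutathione. A salvage pathway returns methionine from the by-product of polyamine synthesis. Cells that run short of an amino acid load a stress pathway through uncharged tRNA and the transcription factor ATF4, which raises transporters and enzymes of amino acid synthesis. Many tumour lines grow poorly when methionine is replaced by homocysteine, which is why diets with less of it are studied in cancer.

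The total expected count ran from 15209500 to 20687400 in restricted and from 13714700 to 29994300 in deficient libraries. All 6 libraries held the pigment genes of melanocytes at high levels, with Tyrp1, an enzyme of pigment synthesis, between 5550 and 14000 CPM (counts scaled to a common library size). They also held lung RNA in unequal amounts. Sftpc, the surfactant protein C gene of alveolar type 2 cells, stood at 86.2, 2.32 and 181 CPM in restricted replicates 1, 2 and 3, and at 319, 37.3 and 2160 CPM in deficient replicates 1, 2 and 3. Deficient replicate 3 was thus the library richest in lung RNA. Its Spearman correlation across genes with the other deficient libraries was 0.912 and 0.869, while these correlated with each other at 0.971 and restricted pairs at 0.966 to 0.971. List medians, and fitted fold changes that moved by over 1.5 times without deficient replicate 3, are therefore also given without it. In bulk RNA, a change in the number of cells of a type and a change in the RNA per cell cannot be told apart.

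At the level of single genes the diets were not separated by the main test. Of 16001 genes tested, edgeR's quasi-likelihood test called 0 at an adjusted p under 0.05 (0.0% of genes), and the smallest adjusted p was 0.27, for Myc. At an unadjusted p under 0.05 there were 1191 genes, where 800 fall by chance: 826 lay higher in deficient libraries (5.16% of genes) and 365 lower (2.28%). In 753 genes (4.71%) all deficient libraries lay above all restricted libraries, and in 1021 genes (6.38%) all lay below. DESeq2, run beside it, called 9 genes (0.0562%), 6 higher and 3 lower, and limma-voom called 0, with 720 at an unadjusted p under 0.05. The median log2 fold change over all genes, here always deficient minus restricted, was 0.02, with 48.0% of genes below 0. With deficient replicate 3 left out, edgeR again called 0 genes, and 181 genes lay higher (1.13%) and 201 lower (1.26%) at an unadjusted p under 0.05. On simulated data edgeR's test called 54% of genes with a 4-fold difference, so 0 calls do not show that genes are equal. DESeq2 called 20 unchanged genes there. All members and genes named below are accordingly given as values, and none passed the main test.

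Myc was the gene with the smallest p. It encodes a transcription factor that drives growth, ribosome production and proliferation. Its level was 83.4, 92.1 and 78.5 CPM in the restricted libraries and 35.7, 46.2 and 39.0 CPM in the deficient libraries, so that the highest deficient library lay well below the lowest restricted one. The log2 fold change was -1.07 (SE 0.175, n = 3 against 3, edgeR adjusted p = 0.27; DESeq2 adjusted p = 0.000135). Without deficient replicate 3 the log2 fold change was -1.05. Without that library DESeq2 called 3 genes, Myc with an adjusted p = 0.00357, together with Gm20388 and the unnamed ENSMUSG00000091921, singled out here after their values were seen. Gm20388 and ENSMUSG00000091921 had extreme DESeq2 log2 fold changes of -23.08 and -21.36, and edgeR called neither. For ENSMUSG00000091921 edgeR's log2 fold change ran from -8.12 to 8.46 when each library was left out, so these calls are unreliable. For Myc, adequate libraries stood at 41.9 ± 1.68 CPM (SD, n = 3) and supplemented libraries at 65.5 ± 10.3 CPM (SD, n = 6). In Myc, therefore, the deficient mean of 40.3 ± 5.35 CPM (SD, n = 3) lay beside the adequate mean, and the restricted mean of 84.7 ± 6.84 CPM (SD, n = 3) was the highest of the 4 diets. Partners and antagonists of Myc differed less. Of 13 network genes tested 8 lay below 0, with a median of -0.03. Mxd3, a repressor that competes for the shared partner MAX and is found in dividing cells, stood at 29.4, 28 and 33.7 CPM in restricted and 22.9, 20.1 and 9.59 CPM in deficient libraries (log2 fold change -0.79, SE 0.362, and -0.50 without deficient replicate 3). Mxd4, a related repressor, had a log2 fold change of 0.43 (SE 0.229), and 0.22 without that library. Lists of genes that Myc is known to drive were near 0. The 34 genes of ribosome biogenesis had a median of -0.10 and the 36 genes of cytosolic ribosomal proteins a median of -0.02, which became 0.04 and 0.17 without deficient replicate 3.

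**Figure D1:**
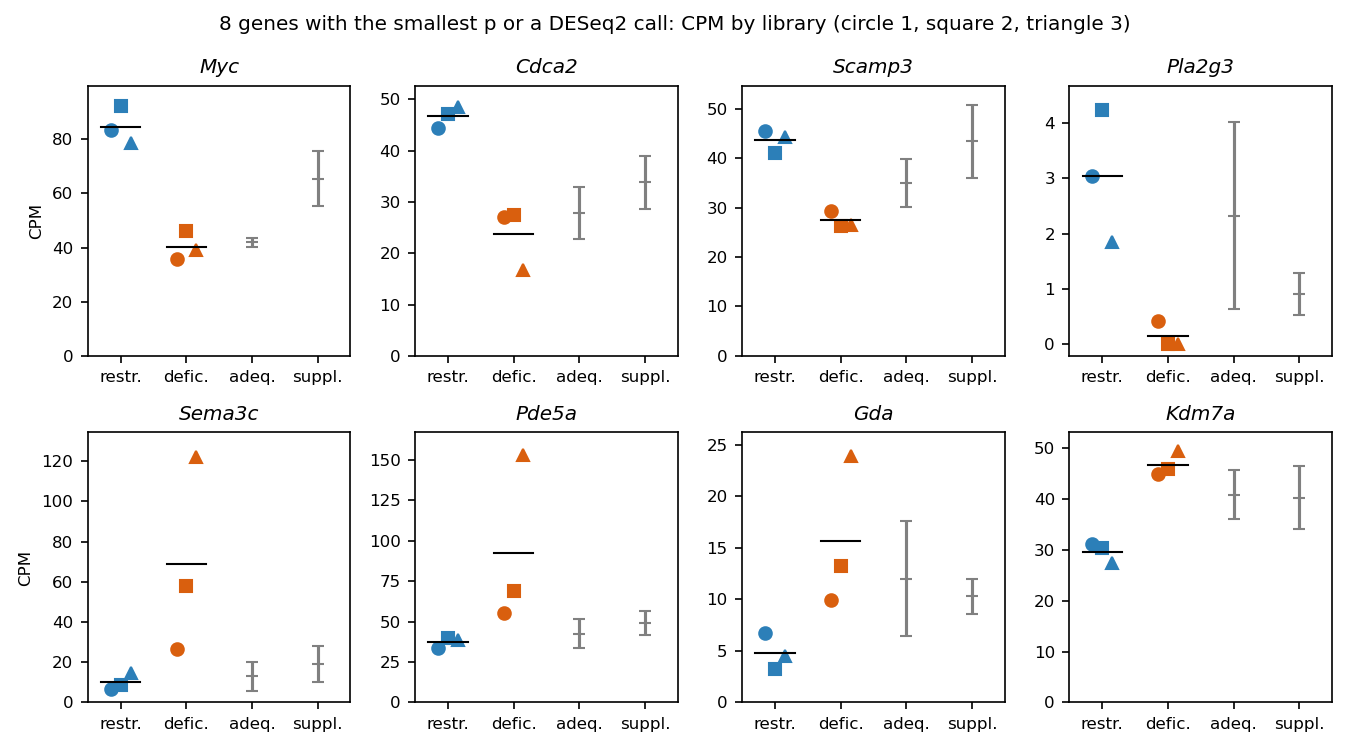
CPM of 8 genes with the smallest p or a DESeq2 call in each restricted and deficient library (circle, square and triangle for replicates 1, 2 and 3; black line, mean), with the mean and SD of the adequate and supplemented libraries in grey. Myc, Cdca2, Scamp3 and Pla2g3 were lower in every deficient library, and the triangle of deficient replicate 3 stands far above the others for Sema3c, at 122 CPM, and Pde5a, at 153 CPM.

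The other genes that DESeq2 called were a mixed group. Cdca2, which brings a phosphatase to mitotic chromosomes, stood at 44.4, 47.2 and 48.5 CPM in restricted and 27, 27.5 and 16.7 CPM in deficient libraries (log2 fold change -0.97, SE 0.213, DESeq2 adjusted p = 0.033). Pla2g3, a secreted phospholipase, was at 3.04, 4.24 and 1.85 CPM against 0.424, 0 and 0 CPM, and its fitted log2 fold change of -4.23 rests on these low counts. Sema3c, a secreted semaphorin that guides migrating cells and vessels, stood at 6.69, 8.52 and 14.7 CPM in restricted and 26.4, 57.8 and 122 CPM in deficient libraries (log2 fold change 2.79, SE 0.574, DESeq2 adjusted p = 0.000806). All 3 deficient libraries were above the adequate mean of 13 ± 7.17 CPM (SD, n = 3) as well, and without deficient replicate 3 the log2 fold change of Sema3c was 2.08. Pde5a, the phosphodiesterase that breaks down cyclic GMP, stood at 33.5, 39.8 and 38.6 CPM against 55.4, 69.0 and 153 CPM (log2 fold change 1.31, and 0.74 without deficient replicate 3), with a DESeq2 adjusted p that rounds to 0.05. Gda, which deaminates guanine, stood at 6.74, 3.28 and 4.50 CPM against 9.92, 13.2 and 23.9 CPM (log2 fold change 1.69, SE 0.39). In Ogn, Scube2 and Ankrd33b deficient replicate 3 was far above the rest. Ogn, a small proteoglycan of the matrix, was at 10.3, 3.16 and 86.9 CPM in the deficient libraries against at most 2.84 CPM in the restricted ones, and its log2 fold change of 4.15 was 1.84 without that library. Scube2, a secreted protein that helps release Hedgehog ligands, was at 1.66, 0.0502 and 32.0 CPM, and Ankrd33b at 3.67, 1.91 and 53.7 CPM, and their deficient and restricted libraries overlapped. Without deficient replicate 3 edgeR's unadjusted p was 0.0865 for Scube2 and 0.141 for Ankrd33b.

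Some genes with small p differed by less but evenly over the libraries. Kdm7a, a demethylase of histone H3, stood at 31.2, 30.3 and 27.4 CPM in restricted and 45.0, 46.0 and 49.5 CPM in deficient libraries. Its log2 fold change was 0.66 (SE 0.17), and 0.62 without deficient replicate 3. Scamp3, a membrane carrier of the endosome and Golgi, stood at 45.4, 41.1 and 44.3 CPM against 29.3, 26.2 and 26.5 CPM, a log2 difference of -0.67 (SE 0.175). In both genes the groups were separated by more than the range within either group. Sap18b, a copy of a gene for a histone deacetylase subunit, was at 81.8, 89.4 and 63.6 CPM against 42.9, 43.3 and 41.3 CPM, and 4931406C07Rik at 44.2, 28.5 and 36.5 CPM against 20, 15.9 and 21.9 CPM. Reads of Sap18b may be shared with its near-identical copy, so its value is uncertain. Gm22133 had a log2 fold change of -1.23 (SE 0.293). On the higher side, Sgk1, a kinase induced by steroid hormones, stood at 12.4, 14.1 and 11.4 CPM against 19.4, 22.5 and 73.5 CPM. Csf2ra, a subunit of the receptor for the growth factor GM-CSF on myeloid cells, was at 5.03, 4.19 and 5.61 CPM against 11.8, 8.33 and 21.9 CPM. Tmem37, a membrane protein related to calcium channel subunits, had a log2 fold change of 1.49 (SE 0.382), and 0.95 without deficient replicate 3. In these 3 genes deficient replicate 3 was the highest library, but replicates 1 and 2 were also above every restricted library. Adequate means were 37.9 CPM for Sgk1 and 11.0 CPM for Tmem37. The deficient means were 38.5 and 9.75 CPM and the restricted means 12.7 and 3.46 CPM. For Csf2ra the adequate mean of 4.51 CPM lay near the restricted mean of 4.94 CPM. Kdm7a had means of 40.9 CPM in adequate and 40.3 CPM in supplemented libraries, between restricted and deficient.

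Genes of mitosis lay lower in the deficient libraries throughout. Of the 50 genes of G2 and mitosis tested, all 50 had a log2 fold change below 0, with a median of -0.52 against 0.02 over all genes. In 31 of them every deficient library lay below every restricted library, where 6.38% of all genes did so, and 25 had an unadjusted p under 0.05 on the lower side, where 2.28% of all genes did. Their mean log2 CPM was 5.60, 5.73 and 5.71 in the restricted and 5.29, 5.37 and 4.69 in the deficient libraries, and 4.87 to 5.51 in the adequate and 5.27 to 5.68 in the supplemented libraries. Restricted replicates 2 and 3 thus lay above every library of the other diets. With deficient replicate 3 left out, all 50 genes lay below 0, with a median of -0.34, and 6 had an unadjusted p under 0.05 on the lower side, against 1.26% of all genes. With the alveolar level (mean log2 CPM of the alveolar type 1 and type 2 lists) as a covariate the median was -0.31.

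Named members act at successive steps of division. Plk1, a kinase that starts mitosis and builds the spindle, stood at 81.4, 75.1 and 78.6 CPM in restricted and 54.2, 50.4 and 30.1 CPM in deficient libraries (log2 fold change -0.80). Aurka, a kinase of the spindle poles, was at 68.4, 55.2 and 65.8 CPM against 42.7, 46.2 and 26.8 CPM. Cdc20, which switches on the complex that ends mitosis, was at 113, 122 and 115 CPM against 78.5, 83.9 and 39.6 CPM. In all 3 genes, which were chosen for their promoters after their values were seen, the groups did not overlap. Kif2c, a motor that takes microtubules apart at centromeres, stood at 36.3, 41.7 and 42.7 CPM against 28.5, 26.1 and 17.9 CPM. Knstrn, a spindle adaptor, was at 43.1, 48.4 and 40 CPM against 29.8, 24.1 and 17.4 CPM. Mki67, the usual marker of dividing cells, differed less: 197, 206 and 228 CPM against 167, 203 and 158 CPM, with overlapping libraries and a log2 fold change of -0.26 (SE 0.3). Genes of the preceding phase, G1/S and DNA replication, had a median of -0.25 with 42 of 46 below 0, but -0.07 with 31 of 46 below 0 without deficient replicate 3. Cdk2, the kinase that drives entry into replication, stood at 343, 379 and 307 CPM against 275, 249 and 196 CPM (log2 fold change -0.52, SE 0.194). Tk1, which recycles thymidine, and Rpa1, which coats single-stranded DNA, had -0.57 and -0.42, and -0.38 and -0.25 without deficient replicate 3.

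Promoters of G2 and mitosis genes are known for CCAAT boxes, bound by the factor NF-Y, and for a cell cycle element read by complexes that repress these genes outside division. Sequences upstream of gene starts were taken from RefSeq on build GRCm38.p6, which is not the build of the count files. In the 250 bases before the start, searched on both strands, CCAAT occurred in 32 of the 41 G2 and mitosis genes with a window (78.0%) and in 25 of 37 G1/S genes (67.6%), against 40.1% of the tested genes with a window. The element TTTGAA occurred in 11 of the 41 (26.8%) against 13% of tested genes. The 2 motifs do not overlap in letters. Below are the 150 bases before the start of 3 of the genes described above, read 5′ to 3′ on the gene's strand, with CCAAT and TTTGAA matches in capitals.
Plk1 (chr7:122159285-122159434, + strand): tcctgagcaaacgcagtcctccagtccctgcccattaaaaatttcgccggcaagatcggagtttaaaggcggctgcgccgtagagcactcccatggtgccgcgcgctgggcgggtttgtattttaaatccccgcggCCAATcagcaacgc
Aurka (chr2:172370571-172370720, - strand): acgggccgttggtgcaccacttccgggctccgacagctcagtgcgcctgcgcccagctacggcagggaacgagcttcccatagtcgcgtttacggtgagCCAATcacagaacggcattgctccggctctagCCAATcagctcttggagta
Cdc20 (chr4:118437344-118437493, - strand): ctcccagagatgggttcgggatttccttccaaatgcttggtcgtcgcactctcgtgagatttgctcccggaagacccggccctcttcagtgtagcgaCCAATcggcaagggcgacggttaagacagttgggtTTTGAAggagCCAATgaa
Plk1 has a single box 14 bases before the start, Aurka has a pair, and Cdc20 has a pair with TTTGAA between them, 18 bases before the start. A match of letters is not a measured binding site, and these windows were not tested against expression.

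**Figure D2:**
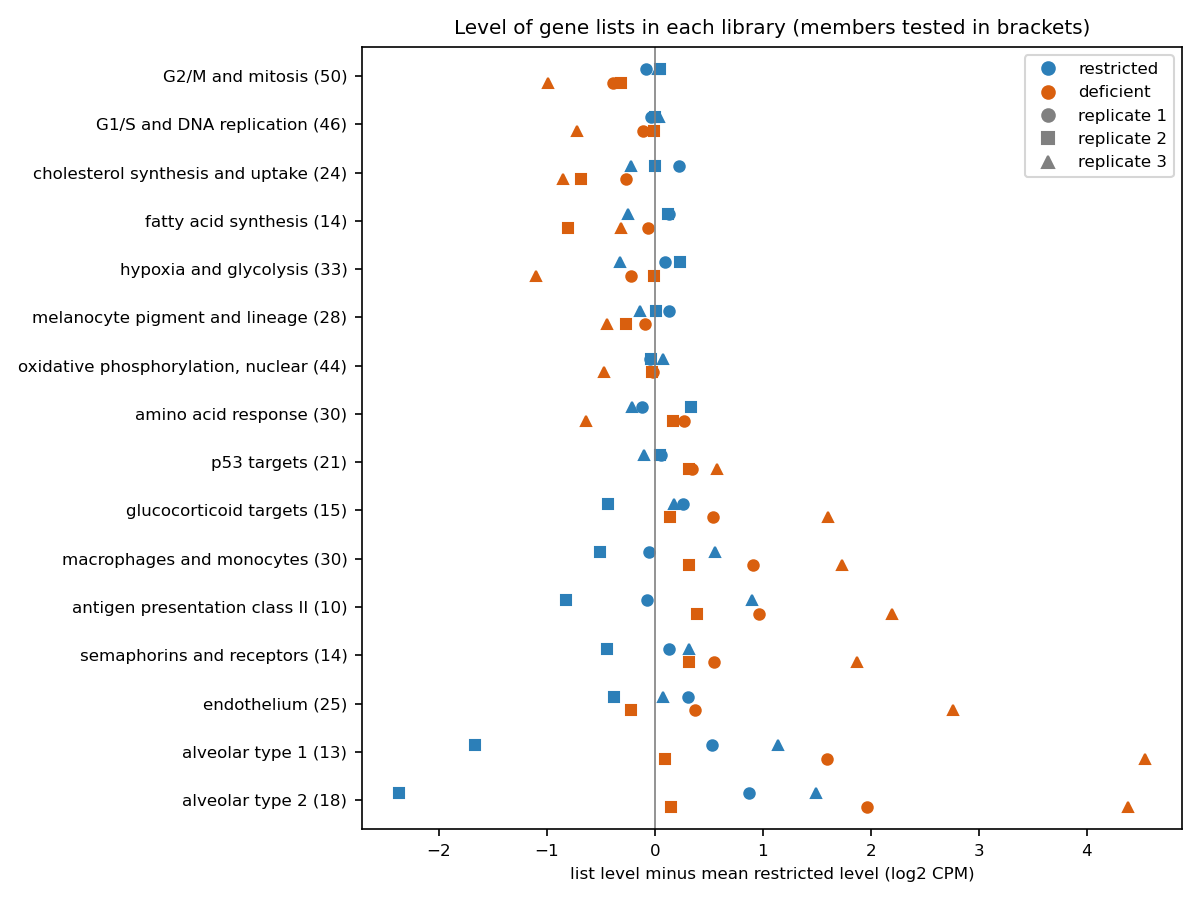
Mean log2 CPM of the members of 16 gene lists in each library, minus the mean of the 3 restricted libraries (blue, restricted; orange, deficient; circle, square and triangle for replicates 1, 2 and 3). G2 and mitosis, cholesterol and p53 target genes are separated by diet in every library, while the lung, endothelial and semaphorin lists are spread out by deficient replicate 3.

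Genes that make and take up cholesterol also lay lower. Sterol synthesis runs from acetyl-CoA through mevalonate and squalene to cholesterol, and its genes are switched on together by the factor SREBP2 when cell sterols are low. Of 24 genes tested 21 had a log2 fold change below 0, with a median of -0.62. In 9 all deficient libraries lay below all restricted ones, as in 6.38% of all genes, and 13 had an unadjusted p under 0.05 on the lower side, as did 2.28% of all genes. Their mean log2 CPM was 6.01, 5.79 and 5.57 in restricted and 5.52, 5.11 and 4.94 in deficient libraries. Levels in adequate libraries were 5.23 to 5.68 and in supplemented libraries 5.31 to 5.62. Restricted replicates 1 and 2 lay above every adequate and supplemented library, and deficient replicates 2 and 3 lay below every one of them. With deficient replicate 3 left out, the median was -0.52, with 21 of 24 below 0 and 7 at an unadjusted p under 0.05 on the lower side, against 1.26% of all genes.

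In pathway order, Acat2, which joins acetyl-CoA units, stood at 54.1, 43.0 and 46.4 CPM in restricted and 37.2, 18.3 and 21.5 CPM in deficient libraries. Fdps, which makes farnesyl diphosphate, was at 126, 122 and 103 CPM against 98.8, 59.6 and 47.0 CPM. In these early enzymes of the pathway every deficient library lay below every restricted one. Fdft1, which commits farnesyl units to squalene, stood at 82.9, 68.7 and 56.7 CPM against 48.0, 28.8 and 29.4 CPM (log2 fold change -0.97, SE 0.251). Sqle, which oxidises squalene, was at 138, 123 and 88.7 CPM against 92.3, 48.4 and 53.5 CPM (-0.85, SE 0.25). Cyp51, which demethylates lanosterol, was at 197, 200 and 138 CPM against 139, 86.6 and 60.7 CPM. For Sqle and Cyp51 deficient replicate 1 lay just above restricted replicate 3, so these groups touched. Dhcr7, which makes cholesterol from its last precursor, stood at 112, 64.1 and 57.2 CPM against 45.2, 45.7 and 33.6 CPM (-0.90, SE 0.23). Mvd and Nsdhl had -0.75 each with overlapping libraries, and Idi1 and Ebp lay slightly above 0, at 0.15 and 0.10, and at 0.33 and 0.22 without deficient replicate 3. Members outside the 3 smallest p of the list are given here to show more of the pathway, after their values were seen.

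Genes of sterol control and transport were measured as well. Insig1, which retains SREBP in the endoplasmic reticulum and is itself a target, had -0.67, and Srebf2, which encodes SREBP2, had -0.47. Stard4, a carrier of cholesterol in the cytosol, stood at 39.7, 27.7 and 38.0 CPM against 23.3, 22.2 and 24.7 CPM. Of 8 genes of cholesterol export and LXR targets 5 lay below 0, with a median of -0.17. Nr1h3, which encodes the sterol sensor LXR alpha, and Abcg1, an exporter, had 1.32 and 1.91, and 0.55 and 0.53 without deficient replicate 3. Lpcat3, an LXR target that remodels phospholipids, stood at 174, 164 and 137 CPM against 107, 117 and 81.4 CPM (-0.64, SE 0.226).

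**Figure D3:**
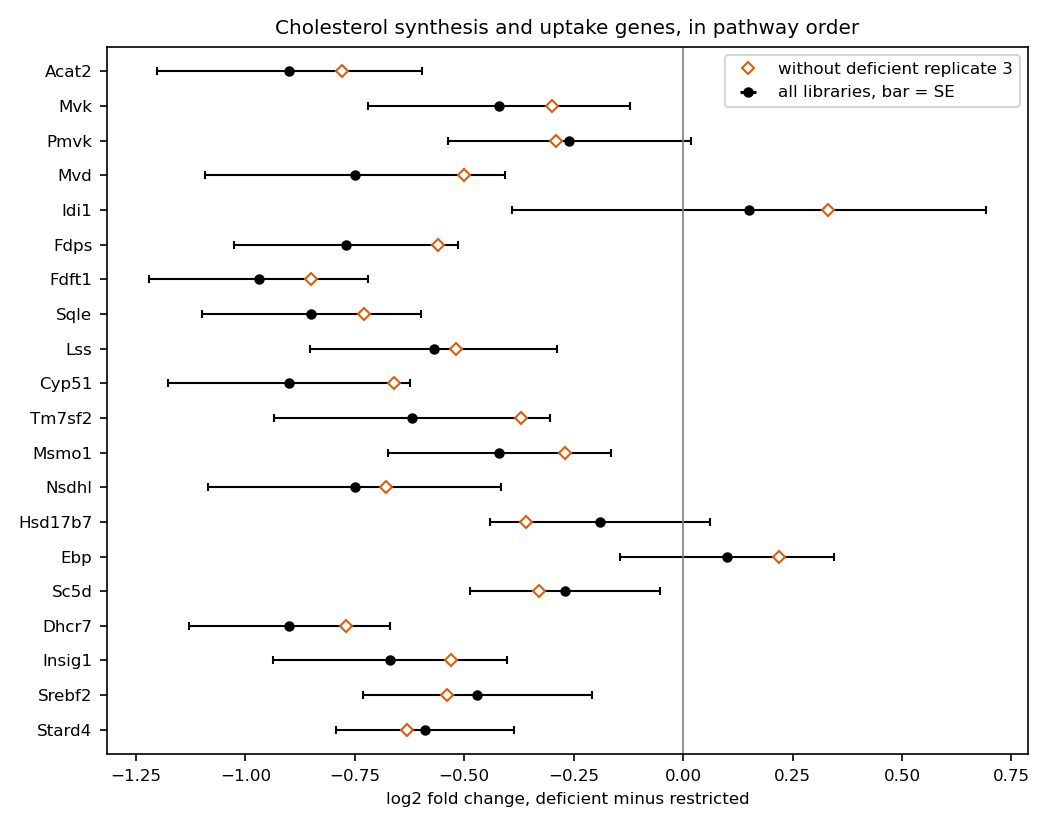
Log2 fold change (deficient minus restricted) of 20 tested cholesterol genes in pathway order, from the fit over all libraries (black, with SE) and without deficient replicate 3 (open diamonds). Of the 20 genes plotted, 18 lie below 0 in both fits, with Idi1 and Ebp above.

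CCAAT was also frequent before these genes: in 16 of the 17 with a window (94.1%), against 40.1% of tested genes. The sterol regulatory element TCACNCCAC occurred in 1 of the 17 (5.88%), against 1.27% of tested genes. Below are windows of a late and a middle enzyme, 150 bases before the start with CCAAT or its reverse ATTGG in capitals. Dhcr7 has 3 starts in the table, of which the window with matches is shown.
Dhcr7 (chr7:143830064-143830213, + strand): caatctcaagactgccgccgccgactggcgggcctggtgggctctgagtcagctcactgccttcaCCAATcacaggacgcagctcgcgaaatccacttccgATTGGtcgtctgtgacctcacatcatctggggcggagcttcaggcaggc
Cyp51 (chr5:4104698-4104847, - strand): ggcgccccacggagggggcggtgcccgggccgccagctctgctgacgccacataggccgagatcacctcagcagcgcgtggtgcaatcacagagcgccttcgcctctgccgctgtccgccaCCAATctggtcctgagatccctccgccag
Dhcr7 holds the box on both strands, 85 and 49 bases before the start, and Cyp51 holds a single box 29 bases before it. Promoters of G2 and mitosis genes and of sterol genes thus share the letters CCAAT more often than tested genes at large, with no test made of that share.

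Fatty acid synthesis, switched on by the related factor SREBP1, lay lower in part. Of 14 genes 11 lay below 0, with a median of -0.29, and 5 had an unadjusted p under 0.05 on the lower side, as did 2.28% of all genes. This median depended on single libraries: it was -0.64 without deficient replicate 1, -0.11 without deficient replicate 2, -0.19 without restricted replicate 2 and -0.50 without restricted replicate 3. With deficient replicate 3 left out, all 14 lay below 0, at a median of -0.31. Acly, which makes acetyl-CoA from citrate, stood at 364, 301 and 297 CPM in restricted and 248, 183 and 204 CPM in deficient libraries (log2 fold change -0.60, SE 0.201). Fads1, a desaturase of long fatty acids, was at 252, 299 and 232 CPM against 193, 155 and 142 CPM (-0.68, SE 0.195). Elovl6, an elongase, was at 39.6, 36.9 and 31.3 CPM against 29.1, 28 and 16.1 CPM. These 3 genes were picked as the smallest p of the list. They were the 3 of its 14 genes in which all deficient libraries lay below all restricted ones, as in 6.38% of all genes. Fasn, fatty acid synthase itself, overlapped between the diets: 875, 718 and 574 CPM against 726, 473 and 818 CPM.

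Genes of the methionine cycle lay near 0 at the median, although the diets differ in methionine itself. Of 11 genes tested, 0 had an unadjusted p under 0.05 in edgeR's fit, and the median was -0.07. Among all genes 5.16% had such a p on the higher and 2.28% on the lower side, so 0 of 11 says little. Without deficient replicate 3, 1 of the 11 had it on the higher side, against 1.13% of all genes. Mat2a, which makes S-adenosylmethionine in most tissues, stood at 113, 99.0 and 99.3 CPM in restricted and 43.7, 110 and 73.5 CPM in deficient libraries. Its log2 fold change was -0.45 (SE 0.276, edgeR adjusted p = 0.762), and deficient replicate 2 lay within the range of the restricted libraries. Mat2b, its regulatory subunit, had -0.07, and Ahcy, which splits S-adenosylhomocysteine, -0.11. Mtr and Mtrr, which return homocysteine to methionine and keep that enzyme active, had 0.34 and 0.45. Mtrr was at 13.5, 18.2 and 10.2 CPM against 19, 21.9 and 16.5 CPM, with overlap in a single pair of libraries. Genes of the liver-type cycle were near the limit of detection: Mat1a ranged from 0.201 to 5.88 CPM and Bhmt from 0 to 2.40 CPM.

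In transsulfuration, Cbs, which joins homocysteine to serine, was detected mainly in the deficient libraries: 0, 0.202 and 0.185 CPM against 0.847, 0.552 and 3.44 CPM. All deficient libraries were above all restricted, adequate (0.224 ± 0.112 CPM, SD, n = 3) and supplemented means, but at levels of few reads, and the log2 fold change of 3.57 had an SE of 1.19 (edgeR adjusted p = 0.649) and was 2.39 without deficient replicate 3. Cth, which releases cysteine, stood at 1.93, 3.68 and 2.47 CPM against 6.82, 5.92 and 2.36 CPM, so that deficient replicates 1 and 2 lay above every restricted library and replicate 3 did not. Adequate libraries stood at 6.39 ± 0.727 CPM (SD, n = 3) and supplemented libraries at 5.42 ± 3.31 CPM (SD, n = 6). All restricted libraries and deficient replicate 3 lay below both of these means. Without deficient replicate 3 the log2 fold change of Cth was 1.24. Cdo1, which oxidises cysteine, and Sqor, which oxidises hydrogen sulfide, had 4.43 and 2.51, and 1.64 and 0.78 without deficient replicate 3, with 27.9 and 17.6 CPM in deficient replicate 3 against at most 2.72 and 3.35 CPM elsewhere in the comparison. Gclc, the limiting enzyme of glutathione synthesis, had 0.93, and 0.42 without that library. Its partner Gclm was even, at 27.8, 25.1 and 27.9 CPM against 33.1, 31.1 and 32.0 CPM. Of the 13 genes of the list 9 lay above 0, with a median of 0.25, and 0.14 without deficient replicate 3. On the higher side 4 of the 13 had an unadjusted p under 0.05, against 5.16% of all genes. Without deficient replicate 3 this held for 1, against 1.13% of all genes.

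Salvage and polyamine genes had a median of 0.01, with 8 of 16 on either side of 0. Adi1, the last dioxygenase of methionine salvage, stood at 42.8, 37.7 and 37.1 CPM in restricted and 32.7, 26.5 and 28.1 CPM in deficient libraries (log2 fold change -0.43, SE 0.165). Sat1, which acetylates polyamines for export, was at 27.8, 31.1 and 28.9 CPM against 36.4, 41.9 and 38.7 CPM, and Smox, which oxidises spermine, had -0.42. Adi1 and Sat1 did not overlap between the diets, while Odc1, the first enzyme of polyamine synthesis, ran from 145 to 350 CPM among deficient libraries alone. In the list all deficient libraries lay above all restricted ones in 1 of 16 genes and below them in 2, against 4.71% and 6.38% of all genes. Serine and folate one-carbon genes had a median of -0.19 with 14 of 18 below 0, and 0.01 with 9 of 18 below 0 without deficient replicate 3. None of the 18 had an unadjusted p under 0.05, where 5.16% of all genes had one on the higher and 2.28% on the lower side. The list named methyl acceptor enzymes holds mainly methyltransferases, beside Tet1, Tet2, Tet3 and Uhrf1, which transfer no methyl group. Of its 26 genes tested 18 lay below 0, with a median of -0.08. Gamt, which uses S-adenosylmethionine to make creatine, stood at 19.3, 17.0 and 10.9 CPM against 11.0, 5.17 and 7.77 CPM, and Mettl3, which methylates adenosine in mRNA, at 30.1, 25.8 and 27.1 CPM against 16.1, 23.6 and 14.5 CPM. Inmt, a lung methyltransferase, had 44.5, 1.35 and 529 CPM in the deficient libraries, in the order of their Sftpc.

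**Figure D4:**
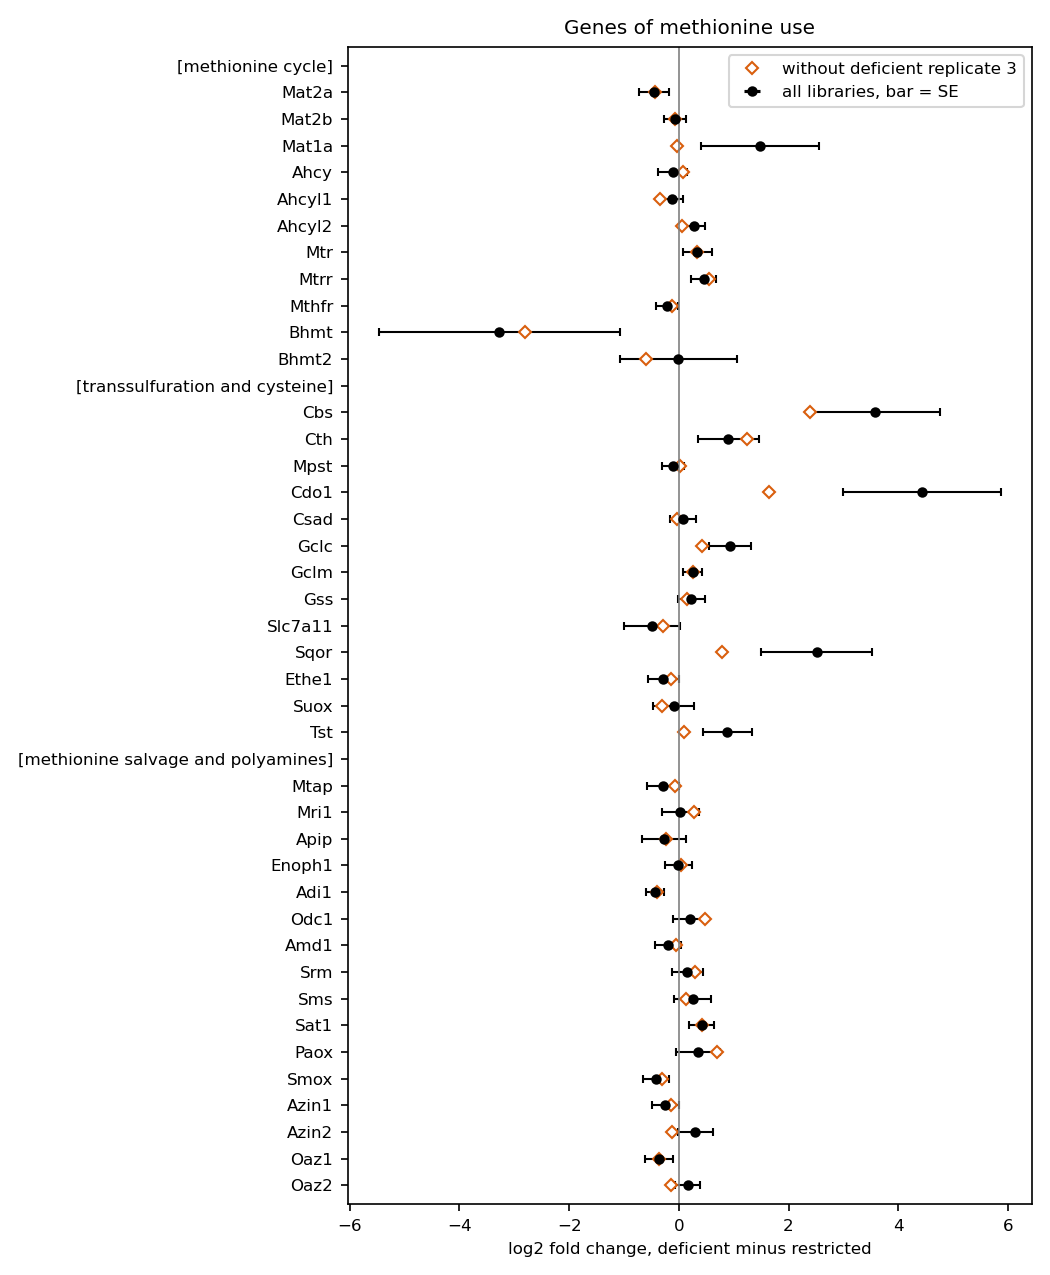
Log2 fold change (deficient minus restricted) of genes of the methionine cycle, transsulfuration and salvage, from the fit over all libraries (black, with SE) and without deficient replicate 3 (open diamonds). Most points lie within 1 log2 unit of 0. Cbs, Cdo1, Sqor and Mat1a stand to the right and Bhmt to the left, with wide errors, and Cdo1, Sqor and Mat1a lie nearer to 0 without that library.

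The amino acid stress response showed no common direction. Of 30 genes tested 12 lay above 0 and 18 below, with a median of -0.13, and 0.13 with 17 above 0 without deficient replicate 3. Asns, asparagine synthetase and a standard ATF4 target, stood at 100, 146 and 114 CPM in restricted and 135, 233 and 53.2 CPM in deficient libraries. Trib3, a pseudokinase of the same response, was at 46.4, 63.9 and 39.8 CPM against 63.9, 62.3 and 18.1 CPM. In both genes deficient replicate 3 was the lowest of the 6 libraries, and the log2 fold changes of 0.23 and -0.06 became 0.62 and 0.33 without it. Vldlr, a lipoprotein receptor, stood at 1.44, 0.858 and 1.85 CPM against 2.44, 6.92 and 21.3 CPM (log2 fold change 2.88, SE 0.761, and 1.76 without deficient replicate 3). Cebpb, a partner factor of ATF4, was at 36.0, 29.6 and 25.8 CPM against 53.2, 53.4 and 40.5 CPM (0.69, SE 0.306). Slc38a2, a neutral amino acid transporter that carries methionine among others, went the other way, at 178, 198 and 186 CPM against 136, 117 and 139 CPM (-0.52, SE 0.212). The groups of these 3 genes did not overlap. In the list all deficient libraries lay above all restricted ones in 3 of 30 genes and below them in 1, against 4.71% and 6.38% of all genes. Of 20 genes of the unfolded protein response 14 lay below 0 with a median of -0.07. Hspa5, its main chaperone, had 0.04 (SE 0.305), and 0.30 without deficient replicate 3, and Hsp90b1 -0.41 (SE 0.229). Among 22 glutathione and NRF2 genes the median was -0.06: Tkt, an enzyme of the pentose phosphate pathway, stood at 380, 378 and 284 CPM against 246, 200 and 180 CPM, and Mgst1, a membrane glutathione transferase, at 13.4, 14.9 and 13.9 CPM against 26.3, 17.2 and 116 CPM, with a log2 fold change of 1.92, and 0.63 without deficient replicate 3.

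Targets of p53 lay higher in the deficient libraries by a modest amount. The factor responds to DNA damage, nucleotide shortage and other stress by halting the cell cycle or starting cell death. Of 21 genes tested 17 lay above 0, with a median of 0.44, and in 6 all deficient libraries were above all restricted, where 4.71% of all genes were. On the higher side 3 of the 21 had an unadjusted p under 0.05, against 5.16% of all genes. The mean log2 CPM of the list was 3.80, 3.79 and 3.64 in restricted and 4.09, 4.06 and 4.32 in deficient libraries. In adequate libraries it was 4.12 to 4.26, and in supplemented libraries 3.82 to 4.02, so that all 3 restricted libraries lay below every library of the other diets, though the highest restricted and lowest supplemented values were close. Without deficient replicate 3 the median was 0.42 with 17 of 21 above 0, and 4 had an unadjusted p under 0.05 on the higher side, against 1.13% of all genes. Without deficient replicate 2 the median was 0.18. Trp53inp1, which promotes p53 activity and autophagy, stood at 31.7, 42.8 and 47.2 CPM against 55.2, 97.2 and 48.4 CPM (log2 fold change 0.72, SE 0.276). Mdm2, the ligase that degrades p53, was at 55.9, 58.0 and 54.6 CPM against 64.9, 77.6 and 60.6 CPM, and Ccng1, cyclin G1, at 58.7, 70.9 and 68.3 CPM against 80.0, 132 and 74.3 CPM. Mdm2 and Ccng1 were chosen after their values were seen, as members without overlap. Cdkn1a, the cell cycle inhibitor p21, did not separate, at 61.8, 59.9 and 47.3 CPM against 52.2, 72.8 and 58.4 CPM. Btg2, a brake on proliferation, and Fas, a death receptor, had 1.32 and 3.90, and 0.36 and 2.24 without deficient replicate 3, with 80.1 and 6.15 CPM in deficient replicate 3.

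Targets of glucocorticoids, hormones of fasting and stress, had a median of 0.78 with 12 of 15 above 0, and 0.09 with 10 of 15 above 0 without deficient replicate 3. Their mean log2 CPM was 3.85, 3.16 and 3.77 in restricted and 4.13, 3.73 and 5.2 in deficient libraries. It was 4.26 to 4.95 in adequate and 3.63 to 4.79 in supplemented libraries. Deficient replicates 1 and 2 thus lay below every adequate library. Apart from Sgk1, Klf9, a transcription factor, stood at 21.0, 14.6 and 19.5 CPM in restricted and 24.5, 31.4 and 68.6 CPM in deficient libraries (log2 fold change 1.17, SE 0.343, and 0.60 without deficient replicate 3). Mt2, a metal-binding metallothionein, was at 229, 227 and 116 CPM against 117, 145 and 77.5 CPM (-0.75, SE 0.275). Klf9 did not overlap between the diets, while for Mt2 restricted replicate 3 lay below deficient replicates 1 and 2.

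Most pigment genes lay lower in the deficient than in the restricted libraries, though the list levels overlapped. Of 28 melanocyte genes tested 23 lay below 0, with a median of -0.31, and -0.18 with 22 below 0 without deficient replicate 3. Mlana, a melanosome protein, stood at 1030, 727 and 744 CPM in restricted and 609, 482 and 425 CPM in deficient libraries (log2 fold change -0.72, SE 0.238). Slc24a5, an ion exchanger of the melanosome, was at 611, 793 and 663 CPM against 573, 304 and 321 CPM, and Oca2, a melanosome channel, had -0.87 (SE 0.341). Dct, a pigment enzyme and the second most abundant member, was at 7510, 6560 and 5470 CPM against 4960, 5350 and 3640 CPM. The main enzymes differed less: Tyr, tyrosinase, had -0.22 (SE 0.224) and Tyrp1 -0.08 (SE 0.32), and -0.01 and 0.19 without deficient replicate 3. The mean log2 CPM of the list was 7.92, 7.80 and 7.66 against 7.70, 7.53 and 7.35. It was 7.25 to 7.74 in adequate and 7.45 to 7.81 in supplemented libraries. All 3 deficient libraries thus lay within the adequate range, and restricted replicate 1 was the highest library. The share of melanoma cells behind these levels was not tested.

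Pigment genes mark the melanoma cells, but whether their level follows the share of these cells was not tested. Their log2 fold changes differed, with -0.72 for Mlana and -0.08 for Tyrp1. Levels were also set against the mean of the pigment list in each library, a scale chosen after the data were seen. On it the G2 and mitosis genes overlapped between the diets: the difference of mean log2 CPM was -2.32, -2.07 and -1.95 in restricted and -2.40, -2.16 and -2.66 in deficient libraries. Cholesterol genes stayed narrowly apart, at -1.91, -2.01 and -2.09 against -2.18, -2.43 and -2.41. The supplemented range of -2.38 to -1.83 held all 3 restricted libraries and deficient replicate 1, and adequate libraries ran from -2.06 to -1.99. Myc was apart by more, at -1.53, -1.27 and -1.36 against -2.53, -2.0 and -2.06, and p53 targets stood at -4.11, -4.0 and -4.02 against -3.61, -3.47 and -3.03. Adequate libraries lay nearer the deficient ones in both, at -2.36 to -1.88 for Myc and -3.59 to -2.99 for p53 targets. Supplemented libraries ran from -2.14 to -1.28 and from -3.88 to -3.48. Fatty acid genes overlapped on this scale.

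Energy metabolism separated by library more than by diet. Of 33 hypoxia and glycolysis genes 27 lay below 0 with a median of -0.47, and -0.20 without deficient replicate 3. Pdk1, which diverts pyruvate from mitochondria, stood at 144, 155 and 86.1 CPM in restricted and 98.2, 84.9 and 45.3 CPM in deficient libraries. Bnip3l, a mitophagy receptor, had -0.65 (SE 0.232), and Aldoc, an aldolase, -0.97 (SE 0.369), and -0.64 without deficient replicate 3. The 44 nuclear genes of oxidative phosphorylation had a median of -0.17 with 38 below 0, and -0.03 with 25 below 0 without deficient replicate 3, whose level of 5.94 was the lowest, against 6.40 and 6.39 in deficient replicates 1 and 2 and 6.37 to 6.49 in the restricted libraries.

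All 30 macrophage and monocyte genes tested lay above 0, with a median of 0.94, and 9 had an unadjusted p under 0.05 on the higher side, as did 5.16% of all genes. Without deficient replicate 3 all 30 still lay above 0, with a median of 0.49 and 2 at an unadjusted p under 0.05 on the higher side, against 1.13% of all genes. Their mean log2 CPM was 3.11, 2.66 and 3.72 in restricted and 4.07, 3.48 and 4.90 in deficient libraries, so that deficient replicate 2 lay below restricted replicate 3. Fcgr3, a receptor for antibodies, stood at 6.86, 5.45 and 9.06 CPM against 12.7, 14.8 and 24.5 CPM (log2 fold change 1.28, SE 0.347). Ptprc, the common leukocyte antigen CD45, was at 5.53, 5.95 and 14.1 CPM against 18.1, 12.8 and 45.0 CPM. Lyz2, a lysozyme shared with alveolar type 2 cells, had 373, 179 and 1780 CPM in deficient libraries against at most 226 CPM in restricted ones. C1qa, a complement gene of tissue macrophages and one of the 2 most abundant members, differed by 0.26 (SE 0.353). Alveolar genes were higher beside these values: the alveolar type 2 list had all 18 members above 0 and summed to 236 to 1220 CPM in restricted and 615 to 9810 CPM in deficient libraries, and their part in the macrophage values was not tested. With the alveolar level as a covariate the macrophage median was 0.62, with 29 of 30 above 0. Lyz2, a member of both lists, is part of that covariate.

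The 10 genes of antigen presentation by class II molecules had a median of 1.24, 0.66 with 9 above 0 without deficient replicate 3, 1.94 without restricted replicate 3 and 0.58 with the alveolar covariate. Cd74, the invariant chain, stood at 105, 40.3 and 227 CPM in restricted and 279, 125 and 703 CPM in deficient libraries (log2 fold change 1.58, SE 0.681). It had 0.71 without deficient replicate 3 and 0.67 with the alveolar covariate. Cd74 is itself in the alveolar type 2 list, from which that covariate was made, so part of the latter drop is built in. Ctss, the protease that trims it, had 0.97 (SE 0.379), and 0.56 without that library. Class I genes had a median of -0.02. Interferon-induced genes had a median of -0.16 with 31 of 40 below 0, and the smallest p was that of Stat2, which passes on the interferon signal, at 50.6, 44.1 and 71.1 CPM against 43.9, 23.9 and 42.0 CPM (-0.59, SE 0.26). In Stat2 the diets did not overlap, but deficient replicate 1 lay just below restricted replicate 2. Lymphocyte genes had a median of 1.54, and 0.34 without deficient replicate 3. Ighm, the heavy chain of IgM, stood at 3.43, 2.62 and 10.7 CPM against 12.3, 8.98 and 59.2 CPM.

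The lists with the highest medians were those of normal lung and blood, and they rested on deficient replicate 3. Alveolar type 1 genes had a median of 3.0, and 0.72 without it. Ager, a receptor of type 1 cells, stood at 54.7, 6.20 and 70.1 CPM in restricted and 119, 37.8 and 892 CPM in deficient libraries, and Clic5 at 14, 1.66 and 28 CPM against 39.0, 10.4 and 457 CPM. The libraries of both diets overlapped in these genes, and restricted replicate 2 was the lowest of all. Endothelial genes had a median of 1.45 with 25 of 25 above 0, and 0.03 with 13 above 0 without deficient replicate 3. Vwf, the von Willebrand factor of vessels and platelets, was at 105, 71.2 and 87.5 CPM against 128, 92.1 and 605 CPM. The median of erythroid and platelet genes was 2.12, and 0.07 without that library, that of neutrophil genes 1.72 and 0.45, and that of airway genes 1.61 and -0.98. Muscle genes, whose mean log2 CPM ran from -0.68 to 2.18 in the restricted and from -0.25 to 1.10 in the deficient libraries, had -1.32 and -1.26. Fibroblast and matrix genes were near 0 in both fits, at 0.14 and 0.01, with Pdgfra, a receptor of fibroblasts, at 10.8, 2.32 and 14.8 CPM against 17.9, 16.1 and 120.0 CPM.

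Because Sema3c had the smallest p on the higher side, its family was described as well. Of 14 semaphorin and receptor genes 11 lay above 0, with a median of 0.96, and 0.14 without deficient replicate 3. Sema3a stood at 2.10, 0.706 and 3.45 CPM in restricted and 4.94, 2.31 and 35.1 CPM in deficient libraries, and Nrp1, a receptor of class 3 semaphorins on vessels, at 71.8, 49.9 and 60.5 CPM against 68.3, 62.2 and 230.0 CPM. Both overlapped between the diets, and Sema3c did not. Small leucine-rich proteoglycans, the family of Ogn, had a median of 1.19, and 0.18 without that library. Prelp, a matrix protein of the family, was at 22.7, 11.3 and 28.2 CPM against 30.9, 10.6 and 230.0 CPM.

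**Figure D5:**
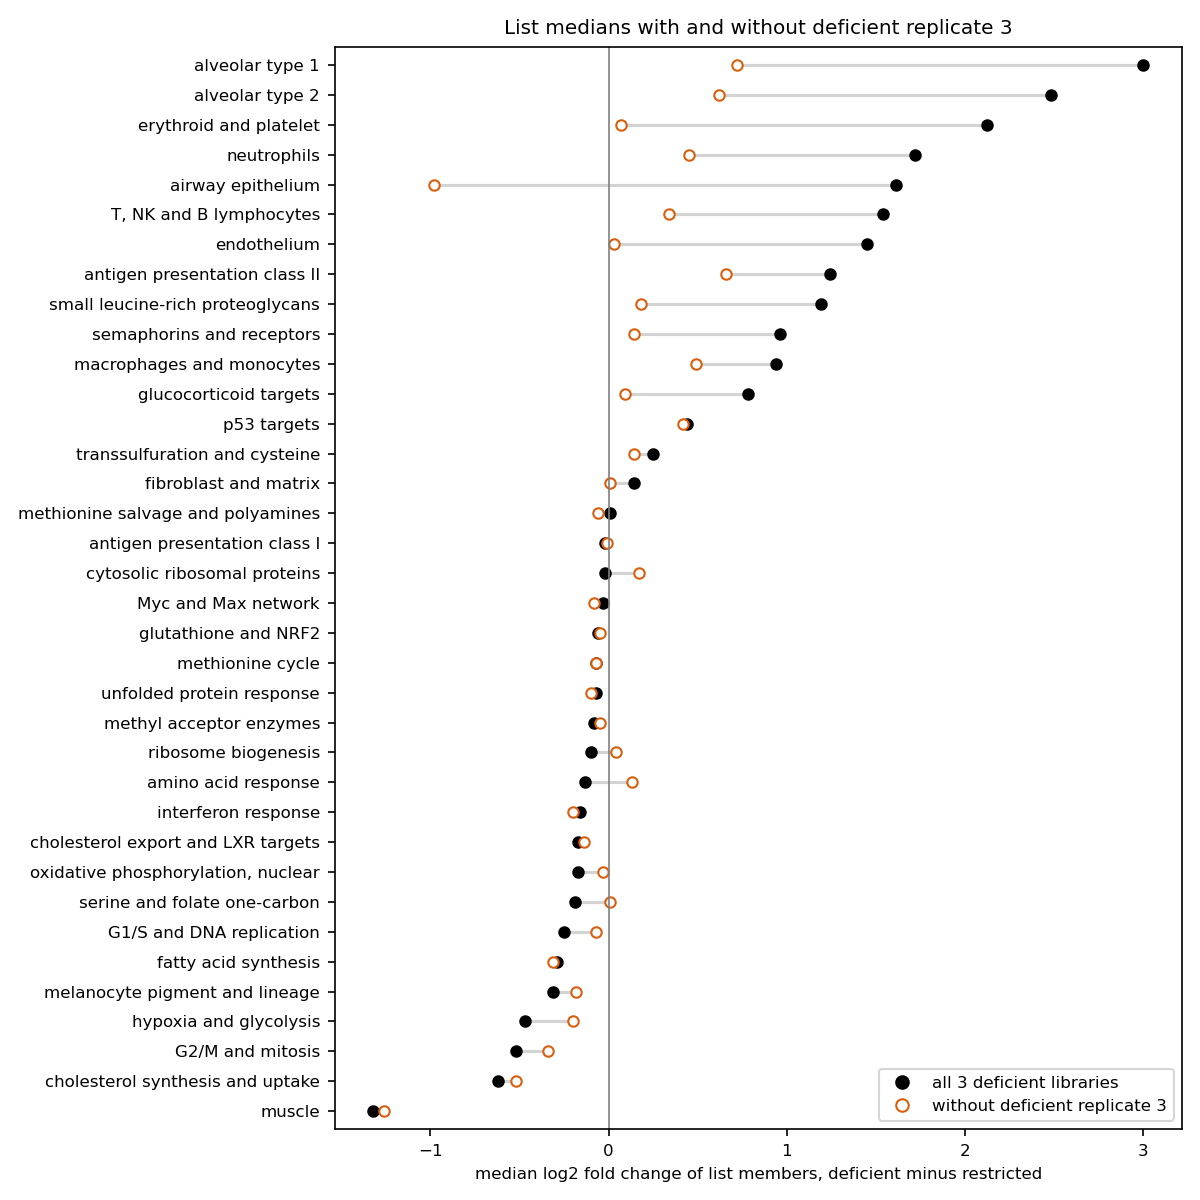
Median log2 fold change (deficient minus restricted) of the members of 36 gene lists, with all libraries (black) and without deficient replicate 3 (open orange). Lung, blood and vessel lists at the top move most, while p53 targets (0.44 and 0.42), fatty acid genes (-0.29 and -0.31) and cholesterol genes (-0.62 and -0.52) stay close for this library, while leaving out each library in turn gave 0.18 to 0.46 for p53 targets and -0.64 to -0.11 for fatty acid genes.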

How the data were processed

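RNA of lung metastases was sequenced after ribosomal RNA removal with a stranded total RNA kit, per the labels. The authors deposited expected counts per gene, made with Bowtie2 2.2.9 and RSEM 1.30 on build NCBIM37, with edgeR named as a further tool, per the submitters' processing notes. Strand setting, annotation release and filters on reads: not given in the sources used here. Therefore overlapping and antisense genes, and near-identical copies, have uncertain counts. RSEM's expected counts were rounded to whole numbers. Of 37620 gene IDs 32897 had a symbol.

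Genes passing edgeR's filter on low counts were fitted in 1 model over all 15 libraries by diet (R 4.3.3, edgeR 4.0.16, TMM, quasi-likelihood test, Benjamini-Hochberg adjustment over 16001 genes), and deficient was set against restricted. Fold changes are log2. CPM values use TMM library sizes, and list levels are means of log2 CPM with a prior count of 2. DESeq2 1.42.0, limma-voom (limma 3.58.1), other normalization, no filter, the 2 groups alone, an alveolar covariate and leaving out libraries were alternatives. On simulated data edgeR called 17% of genes with a 2-fold and 54% of genes with a 4-fold difference, and 2 unchanged genes. DESeq2 called 29% and 69% of them, and 20 unchanged genes. A gene that is not called may therefore still differ, and DESeq2 calls may include unchanged genes. Replicate numbers follow accession order and pair nothing. Chi-square tests found no pair of libraries of a group that differed by as little as sampling noise.

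The members and the 36 gene lists (822 entries, 815 matched) were chosen with earlier results of these data known. Lists carry no test and are described by counts and medians. Named genes are the 8 with the smallest p in each direction that have a symbol and average 1 log2 CPM or more, those DESeq2 called, the 3 smallest p of each list, the 2 most abundant genes of cell type lists and a few preset genes such as Mat2a, Cbs and Asns, or as said in the text. Some genes are not reported here by name, though list counts and medians include them. Promoter windows came from RefSeq.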

Additional observations from a re-analysis of the deposited data

How the results depend on the processing

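Under 14 alternatives edgeR and limma-voom called 0 genes, and DESeq2 called 9, or 3 without deficient replicate 3. Genes deficient versus restricted at an unadjusted p under 0.05 numbered 720 with limma-voom, 476 with DESeq2 without deficient replicate 3, and 382 to 1693 when each library was left out in turn, with 382 without deficient replicate 3, 611 without restricted replicate 2 and 718 without restricted replicate 1. The smallest adjusted p of each edgeR alternative ran from 0.197 to 1.0. The alveolar covariate was made from the alveolar type 1 and type 2 lists, so values near 0 for these lists with it were fixed in advance. List medians were judged by the SD of the list level between libraries within the 2 diets. Deficient replicate 3 is part of that SD, so lists that it spreads could move far and still stay within it. Without that library the alveolar type 2 median went from 2.48 to 0.62 and the class II median from 1.24 to 0.66, each within that SD. Of 509 list medians 475 moved by at most this SD, which therefore does not show that they are stable. Medians that moved by more with the alveolar level as a covariate were 0.28 for semaphorins and receptors, -0.02 for alveolar type 2, 0.00 for alveolar type 1, -1.15 for airway epithelium, 0.15 for endothelium, 0.17 for neutrophils, 0.42 for T, NK and B lymphocytes, 0.53 for erythroid and platelet. With DESeq2 without deficient replicate 3, an alternative chosen after seeing the data, they were 0.10 for glucocorticoid targets, 0.15 for semaphorins and receptors, 0.70 for alveolar type 1, -0.99 for airway epithelium, 0.03 for endothelium, 0.44 for neutrophils, 0.33 for T, NK and B lymphocytes, 0.08 for erythroid and platelet. Relative to the melanocyte list, also chosen after seeing the data, they were -0.21 for G2/M and mitosis, -0.31 for cholesterol synthesis and uptake, 0.02 for fatty acid synthesis, 0.75 for p53 targets. Leaving out each library gave medians of -0.12 to 0.03 for methionine salvage and polyamines, -0.14 to -0.05 for methyl acceptor enzymes, -0.91 to -0.49 for cholesterol synthesis and uptake, -0.64 to -0.11 for fatty acid synthesis, 0.18 to 0.46 for p53 targets, -0.23 to 0.33 for antigen presentation class I, 0.09 to 1.03 for glucocorticoid targets, 0.14 to 1.26 for semaphorins and receptors, 0.72 to 3.56 for alveolar type 1, -0.98 to 2.70 for airway epithelium, 0.03 to 1.88 for endothelium, 0.45 to 2.15 for neutrophils, 0.34 to 2.42 for T, NK and B lymphocytes, 0.07 to 2.61 for erythroid and platelet. The library that decided these ranges was deficient replicate 1 for cholesterol (-0.91) and fatty acid genes (-0.64), deficient replicate 2 for salvage (-0.12), methyl acceptor (-0.14) and p53 genes (0.18), restricted replicate 3 for class I genes (0.33), and deficient replicate 3 for the others. The cause was not tested.

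Of 1568 fold changes of 112 named genes under these alternatives, 1532 kept their sign. Ager and Sftpc belong to the lists from which the alveolar covariate was made. Signs turned with the alveolar covariate (-0.02 for Ager, 0.13 for Ahcy, -0.99 for Mat1a, -0.30 for Sftpc, 0.27 for Trib3, 0.19 for Tyrp1), with limma-voom (0.00 for Asns, -0.80 for ENSMUSG00000091921, -0.02 for Hspa5) and with DESeq2 without deficient replicate 3 (0.08 for Ahcy, -21.36 for ENSMUSG00000091921, -0.04 for Mat1a, 0.34 for Trib3, 0.19 for Tyrp1). Among genes whose sign turned when a library was left out, the log2 fold change ran over -0.28 to 0.08 for Ahcy, -0.35 to 0.62 for Asns, -6.95 to 1.39 for Bhmt, -0.03 to 0.22 for Cdkn1a, -8.12 to 8.46 for ENSMUSG00000091921, -0.10 to 0.42 for Ebp, -0.27 to 0.10 for Fasn, -0.19 to 0.30 for Hspa5, -0.38 to 0.52 for Idi1, -0.04 to 2.03 for Mat1a, -0.09 to 0.48 for Odc1, -0.30 to 0.33 for Trib3, -0.50 to 0.19 for Tyrp1. The cause was not tested.

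No paired analysis was possible because the labels give no replicate numbers shared between the diets.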
